A study of Rattus norvegicus with 44 samples.

Results

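The kidney moves sodium, chloride, bicarbonate, phosphate and sulfate across its tubule cells with a small set of solute carrier (Slc) families, and this report describes the transcripts of 8 of them, Slc4, Slc8, Slc9, Slc12, Slc20, Slc24, Slc26 and Slc34. Members were all genes whose symbol is 1 of these family names followed by the letter a and a number. The rule took 52 genes, each on 1 entry, of 28906 distinct symbols on 32883 entries, and used no measured value. Of the 52 members, 35 passed the filter on low values (FPKM above 1 in at least 9 animals) and were tested, and 17 did not.

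Slc34 and Slc20 proteins carry phosphate with sodium, Slc9 proteins exchange sodium for protons, and Slc12 proteins carry chloride with sodium or potassium. Slc4 proteins move bicarbonate, Slc26 proteins exchange anions such as sulfate, chloride, oxalate and bicarbonate, and Slc8 and Slc24 proteins exchange sodium for calcium. In the proximal tubule, where most of the filtered sodium, bicarbonate and phosphate is taken back, Slc34a1, Slc34a3 and Slc9a3 act on the urine side and Slc4a4 on the blood side. Slc12a1 does this for sodium chloride in the thick ascending limb, and Slc12a3 in the distal convoluted tubule.

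All 44 animals were male obese ZSF1 rats (ZSF-1OB), a strain with obesity, diabetes and kidney disease, each carrying a telemetry transmitter and giving 1 library from a piece of the right kidney. Vehicle animals (n = 11) ate feed without drug. Enalapril, an inhibitor of angiotensin-converting enzyme, was given at 3 mg/kg/day (n = 9), Compound 1, a stimulator of soluble guanylate cyclase, at 1 and later 3 mg/kg/day (n = 12), and and both drugs together, the combination (n = 12), at 3 mg/kg/day of the former and 1 mg/kg/day of the latter. Dosing began at 22 weeks of age and lasted 6 months. Every group, controls included, was obese, so each comparison is between diseased kidneys, and the dose of Compound 1 was not the same in the groups that received it.

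Values are FPKM (a gene's fragments divided by transcript length and by library total), so levels can be compared between genes. They were tested as log2(FPKM + 0.1) with limma over 13482 genes, and a fold change on this scale understates the change of low genes. A gene was called only where the adjusted p was below 0.05 and the fold lay above 1.5 or below 0.66. Animals 1003 and 1004 (Vehicle) and 3001 (Compound 1) stood apart by low proximal tubule markers, and results that changed without them are named or counted below. Read totals are unknown, and relative depth ran from 0.62 to 1.43 over the 44 libraries. Proximal tubule, thick ascending limb, distal convoluted tubule, principal, intercalated and podocyte markers were present in every group, and of the 3 distal convoluted tubule markers found, summing to 56.9 to 150.9 FPKM in Vehicle, only Pvalb was at or near 0. The median of all tested genes stood at -0.15 on the log2 scale under Enalapril and -0.18 under the combination against Vehicle, so changes of members are also given relative to that median.

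In Vehicle kidneys, Slc34a1, the main phosphate carrier of the proximal tubule, had the highest mean of all 52 members, at 918 ± 147 FPKM (SD, n = 11). It made up 51.6% of the summed member level. The thick ascending limb carrier Slc12a1 followed at 172 ± 25.7 FPKM and the thiazide-sensitive Slc12a3 at 164 ± 15.6, and these 2 means differed by less than the spread between animals. Slc34a2, better known from intestine and lung, stood at 87.8 ± 19.8 FPKM, above the other kidney phosphate carrier, Slc34a3, at 38.1 ± 6.22. The lowest Slc34a2 animal (67.9) lay above the highest Slc34a3 animal (45.0).

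The leading members of the other families were Slc26a1, a sulfate exchanger of the blood side (51.5 ± 8.89 FPKM), Slc4a1, the chloride-bicarbonate exchanger of red cells and acid-secreting intercalated cells (35.3 ± 6.12), Slc20a1 (17.6 ± 1.75), Slc9a3 (13.3 ± 2.31), the sodium-calcium exchanger Slc8a1 (8.02 ± 1.39) and Slc24a3 (0.907 ± 0.390). By family, Slc34 held 58.6% of the summed level, Slc12 23.8%, Slc4 7.11%, Slc26 5.4%, Slc9 2.84%, Slc20 1.63%, Slc8 0.476% and Slc24 0.0694%. The coefficient of variation between Vehicle animals ran from 6.89% for Slc20a2 to 43.0% for Slc24a3, with a median of 16.0% over the tested members, the same as over all tested genes.

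Of the 17 members under the filter, 10 were above 0 in every animal and the highest single value was 1.198 FPKM, in Slc9a5. Slc26a7, an anion exchanger described in intercalated cells, was among them at 0.484 ± 0.180 FPKM in Vehicle. Slc24a5, Slc26a3 and Slc26a5 were listed at 0 in all 11 Vehicle animals. A fit without the filter, over 21614 genes, gave 2 of the 17 an adjusted p under 0.05 and a called fold. Of the 21614 genes, it called 726 under Enalapril (73 higher, 653 lower) and 1270 under the combination (158 higher, 1112 lower). At the adjusted p alone, 3741 and 6082 passed. Slc9a5, a sodium-proton exchanger known from brain, fell from 0.563 ± 0.262 FPKM in Vehicle to 0.294 ± 0.148 under Enalapril (-0.76, adjusted p = 0.0325) and 0.263 ± 0.0828 under the combination (-0.82, adjusted p = 0.00187). Slc26a9 fell under the combination, from 0.211 ± 0.106 to 0.0767 ± 0.0732 FPKM (-0.84, adjusted p = 0.00566), and both genes lie near the low end of the scale. Slc9a7 passed the adjusted p without a called fold (-0.53 under Enalapril and -0.43 under the combination).

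**Figure D1:**
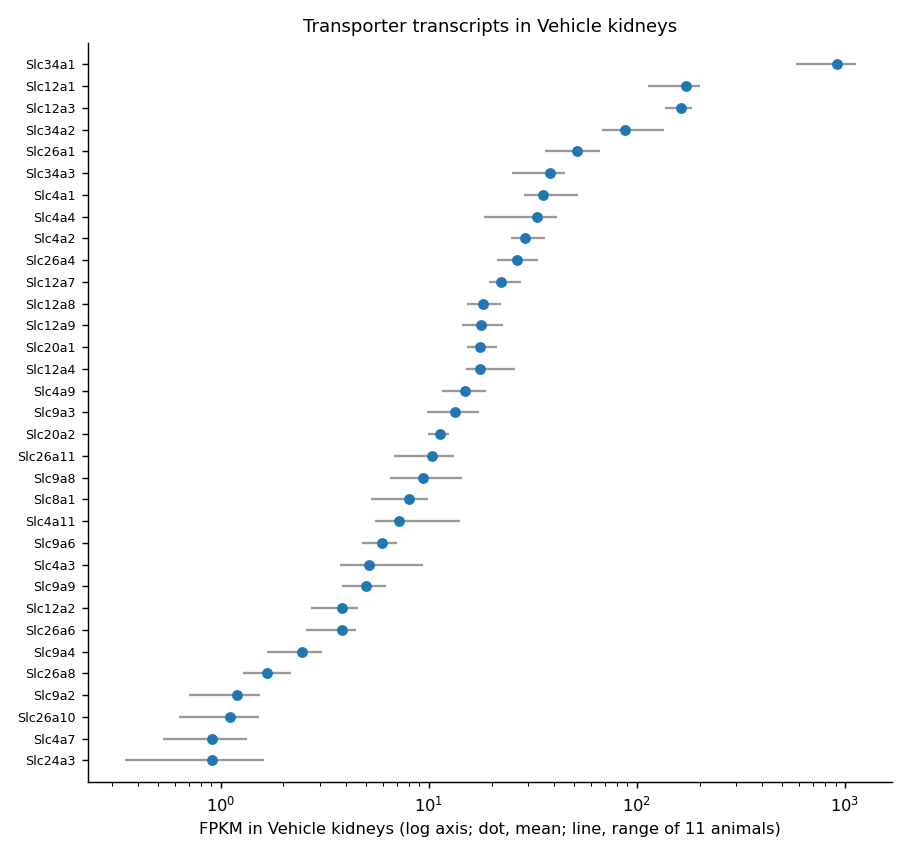
Mean FPKM (dot) and range over 11 animals (line) of 33 tested members in Vehicle kidneys, on a log axis. Slc34a1 stands apart at 918 FPKM, Slc12a1 and Slc12a3 overlap near 172 and 164, and Slc24a3 and Slc4a7 are lowest, at 0.907 and 0.912.

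The members that the treatment results below turn on are shown with their promoters, 250 bases before to 50 after the annotated start, so that the start regions of genes that rose and of Slc34a2, which fell, can be set side by side. Sequences are RefSeq, build GRCr8, 5′ to 3′, matched by symbol for 40 of 52 members. They lie at chr17:9238934-9239233 (minus strand) for Slc34a1, chr3:28447948-28448247 (minus) for Slc34a3, chr1:30995953-30996252 (minus) for Slc9a3, chr14:1184721-1185020 (plus) for Slc26a1 and chr14:62143023-62143322 (minus) for Slc34a2. Capitals mark any of 6 motifs that were searched on both strands. The letters TATAAA stand for the core promoter element of that name, and GTTAAT is part of the site of HNF1, a factor of the proximal tubule. The letters GGGCGG are the GC box bound by Sp1, TGACTCA is the site of AP-1, and CACGTG is the E-box. The HNF4 motif was a direct repeat of AGGTCA with 1 base between the copies.
Slc34a1: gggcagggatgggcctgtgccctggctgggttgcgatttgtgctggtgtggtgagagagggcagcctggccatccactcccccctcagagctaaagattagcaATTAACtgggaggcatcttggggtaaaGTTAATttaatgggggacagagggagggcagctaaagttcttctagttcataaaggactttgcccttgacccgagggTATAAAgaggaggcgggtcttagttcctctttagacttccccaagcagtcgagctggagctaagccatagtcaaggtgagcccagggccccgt
Slc34a3: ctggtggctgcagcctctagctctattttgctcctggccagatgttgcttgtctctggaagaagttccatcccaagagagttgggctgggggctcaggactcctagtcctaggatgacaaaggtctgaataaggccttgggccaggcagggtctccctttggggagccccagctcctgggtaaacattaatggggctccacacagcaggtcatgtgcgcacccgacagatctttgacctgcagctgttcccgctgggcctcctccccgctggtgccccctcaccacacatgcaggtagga
Slc9a3: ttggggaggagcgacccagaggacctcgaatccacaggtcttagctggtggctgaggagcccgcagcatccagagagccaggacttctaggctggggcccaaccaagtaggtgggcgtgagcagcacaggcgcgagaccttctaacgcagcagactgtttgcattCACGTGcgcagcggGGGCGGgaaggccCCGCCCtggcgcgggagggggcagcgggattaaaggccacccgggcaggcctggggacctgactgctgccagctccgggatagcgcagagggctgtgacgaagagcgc
Slc26a1: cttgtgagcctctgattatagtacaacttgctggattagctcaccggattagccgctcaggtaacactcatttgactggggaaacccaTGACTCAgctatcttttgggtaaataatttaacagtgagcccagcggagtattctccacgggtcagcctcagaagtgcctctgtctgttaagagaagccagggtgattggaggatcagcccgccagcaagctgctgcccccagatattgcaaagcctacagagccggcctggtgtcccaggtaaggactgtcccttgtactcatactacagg
Slc34a2: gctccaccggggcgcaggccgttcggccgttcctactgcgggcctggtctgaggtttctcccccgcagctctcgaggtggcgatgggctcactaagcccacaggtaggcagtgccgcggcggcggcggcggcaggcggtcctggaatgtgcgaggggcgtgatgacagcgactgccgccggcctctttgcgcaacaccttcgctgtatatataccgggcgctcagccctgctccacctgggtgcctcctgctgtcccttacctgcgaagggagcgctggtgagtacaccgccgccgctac

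The Slc34a1 window held GTTAAT at -147 on the minus strand and at -120 on the plus strand, and TATAAA at -43, counted from the start. GTTAAT was in 7.45% of 33469 rat promoters and in 3 of 42 member windows, and TATAAA in 14.2% of promoters and in 5 member windows. Slc9a3 had CACGTG at -85 (6.42% of promoters, 6 member windows) and GGGCGG at -71 and -58 (33.1%, 14 windows). Slc26a1 had TGACTCA at -162 (4.63%, 2 windows). None of the 6 motifs was in the Slc34a2 or Slc34a3 window, and the HNF4 motif, in 0.0538% of promoters, was in 0 member windows. Slc34a1, Slc34a3, Slc9a3 and Slc26a1, the genes shown that rose, did not share a motif of this set. Slc12a3, which rose under the combination and is not shown, had TATAAA at -32. Member windows had a median GC content of 61.8%, against 51.7% for all promoters.

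Under Enalapril and under the combination, phosphate carriers moved in opposite directions: Slc34a1 and Slc34a3 rose while Slc34a2 and Slc20a1 fell, and none of them passed the test under Compound 1 alone. Slc34a2 was the only member called under Enalapril, 1 of 35 tested against 4.53% of all tested genes (0.49% called higher and 4.04% lower). In Vehicle it ran from 67.9 through a median of 82.4 to 135 FPKM, under Enalapril from 39.8 through 51.8 to 67.7, under Compound 1 from 51.2 through 87.0 to 122, and under the combination from 37.2 through 53.9 to 71.2. All 9 Enalapril animals lay below the lowest Vehicle animal, as did 10 of 12 animals of the combination. This was the only pair of groups, over 35 members and the 6 comparisons of 2 groups, whose ranges did not overlap. How many of all tested genes had ranges without overlap was not counted, so this cannot be called unusual.

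Slc34a2 fell by 0.74 on the log2 scale under Enalapril (SE 0.11, adjusted p = 0.000244) and by 0.74 under the combination (SE 0.12, adjusted p = 7.36e-05), or -0.59 and -0.56 relative to the median gene. With Compound 1 the change was -0.07 (95% interval -0.33 to 0.18, adjusted p = 0.825). After median-of-ratios scaling, which sets the median gene near 0, Slc34a2 still passed the adjusted p (-0.58 under Enalapril, adjusted p = 0.000772; -0.56 under the combination, adjusted p = 0.000318) but no longer the fold threshold. The highest Vehicle animal, 1003, and animal 1004 were also low in proximal tubule markers, and without both the change was -0.63 in each comparison. In tissue RNA, fewer cells of a type and less RNA per cell cannot be told apart.

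Slc34a1 ran from 578 through a median of 969 to 1127 FPKM in Vehicle, from 992 through 1144 to 1336 under Enalapril, from 477 through 955 to 1120 under Compound 1 and from 985 through 1229 to 1349 under the combination. With Enalapril 5 of 9 animals, and under the combination 9 of 12, lay above the highest Vehicle animal. The rise was 0.37 on the log2 scale under Enalapril (SE 0.09, adjusted p = 0.00578) and 0.40 under the combination (SE 0.08, adjusted p = 0.000566), under the fold threshold in both, and the change under Compound 1 was 0.01 (95% interval -0.23 to 0.25).

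Slc34a3 rose by 0.29 under Enalapril (46.2 ± 5.06 FPKM, n = 9, adjusted p = 0.024) and by 0.29 under the combination (46.5 ± 6.86, n = 12, adjusted p = 0.0152), and stood at 36.5 ± 7.08 under Compound 1. Above the highest Vehicle animal lay 7 of 9 animals under Enalapril and 8 of 12 under the combination. Slc20a1, a phosphate carrier found in most cell types, fell from 17.6 ± 1.75 FPKM to 15.1 ± 1.51 under Enalapril (-0.22, adjusted p = 0.0179) and 14.0 ± 2.64 under the combination (-0.35, adjusted p = 0.00193). Relative to the median gene these were -0.07 and -0.17, and the adjusted p of the Enalapril value was lost under median-of-ratios and quantile scaling. Its relative Slc20a2 stood between 10.9 and 11.3 FPKM in all 4 groups and passed no test (adjusted p = 0.538 under Enalapril and 0.992 under the combination).

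The ratio of Slc34a1 to Slc34a2 within each animal does not depend on any factor that scales its whole library. Both genes had already moved apart in these data, so the ratio restates those changes and is no separate test. The Slc34a1/Slc34a2 ratio ran from 4.28 through a median of 11.8 to 15.3 in Vehicle, from 14.7 through 23.7 to 27.9 under Enalapril, from 3.90 through 11.3 to 19.6 under Compound 1 and from 16.8 through 20.1 to 33.8 under the combination. Every animal of the combination lay above every Vehicle animal. With Enalapril the lowest animal lay just inside the Vehicle range.

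**Figure D2:**
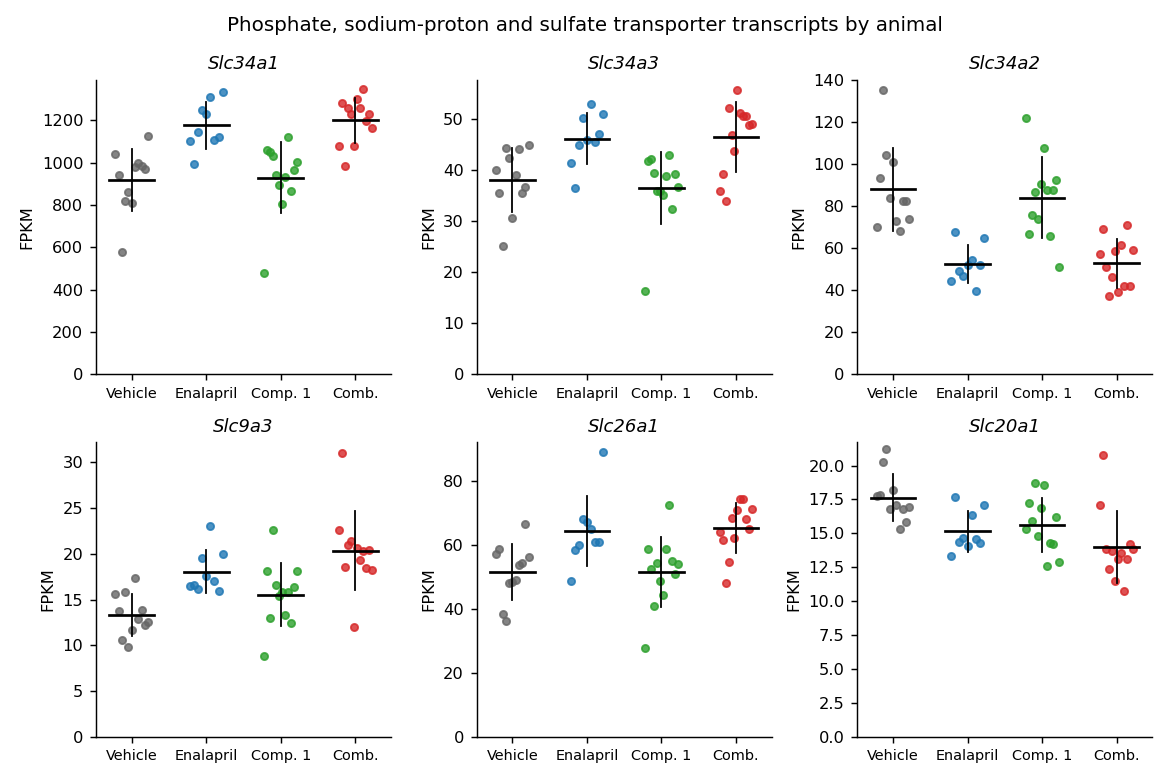
FPKM of 6 transporters in each of 44 animals by group (points), with the group mean (bar) and SD (line). Slc34a1, Slc34a3, Slc9a3 and Slc26a1 sit higher, and Slc34a2 and Slc20a1 lower, under Enalapril and the combination, and 1 Compound 1 animal is low for Slc34a1 (477 FPKM), Slc34a3 (16.4) and Slc26a1 (27.7).

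Among the sodium-proton exchangers, Slc9a3 (NHE3), the exchanger of the proximal tubule brush border, rose. Slc9a3 ran from 9.77 through a median of 12.9 to 17.3 FPKM in Vehicle, from 15.9 through 17.0 to 23.0 under Enalapril, from 8.81 through 15.9 to 22.6 under Compound 1 and from 11.99 through 20.4 to 31.1 under the combination. Above the highest Vehicle animal lay 11 of 12 animals of the combination and 4 of 9 under Enalapril. The rise was 0.60 on the log2 scale under the combination (SE 0.11, adjusted p = 0.000217), where Slc9a3 and Slc34a2 were the 2 members called, 2 of 35 against 7.38% of all tested genes (0.994% called higher and 6.39% lower). The fold lay just past the threshold: without animal 1003, 1006, 1007, 4001 or 4002 in turn it ran down to 0.54 and was not called, while the adjusted p did not exceed 0.00057 without any 1 animal.

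With Enalapril alone Slc9a3 rose by 0.45 (SE 0.10, adjusted p = 0.002), which was not a called fold, although it was called after median-of-ratios scaling (0.60) and quantile normalization (0.59). With Compound 1 the change was 0.21 (95% interval -0.03 to 0.45, adjusted p = 0.43). The endosomal exchanger Slc9a9 fell under the combination (4.17 ± 0.746 against 4.97 ± 0.748 FPKM, adjusted p = 0.0397), an adjusted p lost in 12 of 23 fits that left out 1 animal.

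The anion exchangers also divided. Slc26a1, which carries sulfate out across the blood side of the proximal tubule, ran from 36.1 through a median of 53.7 to 66.7 FPKM in Vehicle, from 48.6 through 61.0 to 88.9 under Enalapril, from 27.7 through 53.2 to 72.6 under Compound 1 and from 48.1 through 66.6 to 74.3 under the combination. The groups overlapped, with 6 of 12 animals of the combination above the highest Vehicle animal. The rise was 0.32 under Enalapril (adjusted p = 0.0246) and 0.35 under the combination (adjusted p = 0.00305), and the Enalapril value lost its adjusted p without Vehicle animals 1003 and 1004. Slc26a11 rose under the combination, from 10.3 ± 1.98 to 13.0 ± 2.24 FPKM (0.33, adjusted p = 0.017), and stood at 12.9 ± 3.41 under Enalapril (0.30, adjusted p = 0.112).

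Slc26a4 (pendrin), the chloride-bicarbonate exchanger of base-secreting intercalated cells, was 26.4 ± 3.82 FPKM in Vehicle, 29.9 ± 2.40 under Enalapril, 30.8 ± 5.36 under Compound 1 and 30.5 ± 4.49 under the combination. It passed the adjusted p only under the combination (0.20, adjusted p = 0.0462; 0.06 under Enalapril and 0.325 under Compound 1), a result lost in 16 of 23 fits that left out 1 animal. Slc26a6, an exchanger of chloride for oxalate and other anions on the urine side of the proximal tubule, fell under the combination from 3.83 ± 0.557 to 2.89 ± 0.942 FPKM (-0.43, adjusted p = 0.00822), and the adjusted p was lost after median-of-ratios and quantile scaling.

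The cation-chloride carriers Slc12a1 and Slc12a3, the targets of loop and thiazide diuretics, were the highest of their family. Slc12a1 was 172 ± 25.7 FPKM in Vehicle, 171 ± 12.7 under Enalapril, 188 ± 17.0 under Compound 1 and 175 ± 27.2 under the combination, and passed no test. Slc12a3 ran from 136 through a median of 163 to 185 FPKM in Vehicle, from 149 through 161 to 204 under Enalapril, from 167 through 187 to 223 under Compound 1 and from 163 through 186 to 299 under the combination. Every Compound 1 animal and every animal of the combination lay above the Vehicle median, and 6 of 12 in each lay above the highest Vehicle animal.

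Slc12a3 rose by 0.24 on the log2 scale under the combination (SE 0.08, adjusted p = 0.0152), lost after quantile normalization (adjusted p = 0.0651) and with the inner medulla covariate (adjusted p = 0.0624). With Compound 1 the value was also 0.24 (SE 0.06), at an adjusted p of 0.0788, and under Enalapril 0.04 (95% interval -0.10 to 0.19). For Compound 1 the adjusted p was 0.0253 with the inner medulla markers as a covariate and 0.0197 with the proximal tubule markers. Of all tested genes, 910 and 396 passed in these 2 fits, against 64 without a covariate. Of the members, 3 passed with the inner medulla covariate (1 higher, 2 lower) and 1 with the proximal tubule covariate. A test of the difference between Enalapril and Compound 1 gave -0.20 (adjusted p = 0.0815).

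The remaining Slc12 members fell or did not pass. Slc12a9 fell from 17.7 ± 2.61 FPKM to 13.9 ± 1.67 under Enalapril (-0.34, adjusted p = 0.00568) and 13.2 ± 2.08 under the combination (-0.43, adjusted p = 0.00047), and 9 of 12 animals of the combination lay below the lowest Vehicle animal. The Enalapril value lost its adjusted p under median-of-ratios and quantile scaling. Slc12a4, a potassium-chloride cotransporter of most cells, fell under Enalapril from 17.6 ± 3.03 to 14.6 ± 2.32 FPKM (-0.27, adjusted p = 0.0361), lost in 7 of 20 fits that left out 1 animal, and stood at 15.5 ± 3.30 under the combination (adjusted p = 0.104). The potassium-chloride cotransporter Slc12a7 and the sodium-potassium-chloride carrier Slc12a2 passed no test against Vehicle, with means from 19.9 to 22.3 and from 3.60 to 3.92 FPKM over the 4 groups.

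Of the bicarbonate carriers, Slc4a3 was the only one to pass the adjusted p against Vehicle. Slc4a4, the sodium-bicarbonate carrier of the blood side of the proximal tubule, was 32.9 ± 6.35 FPKM in Vehicle, 33.6 ± 7.09 under Enalapril, 29.6 ± 5.68 under Compound 1 and 34.8 ± 6.30 under the combination. Its change under Enalapril was 0.02 (95% interval -0.27 to 0.31). Slc4a1 stood between 35.3 and 38.6 FPKM (0.13, adjusted p = 0.338 under Enalapril), where 0 of 3 tested red cell markers passed under Enalapril and 1 rose under the combination, and Slc4a7 between 0.813 and 1.04. Slc4a3, a chloride-bicarbonate exchanger best known from heart and brain, fell under the combination from 5.18 ± 1.58 to 3.75 ± 1.54 FPKM (-0.47, adjusted p = 0.0165), with 8 of 12 animals below the lowest Vehicle animal, and lost its adjusted p under median-of-ratios and quantile scaling.

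The sodium-calcium exchanger Slc8a1 differed between treatments more than from Vehicle. It stood at 8.02 ± 1.39 FPKM in Vehicle, 6.57 ± 1.41 under Enalapril, 9.15 ± 1.55 under Compound 1 and 8.94 ± 1.55 under the combination. Enalapril against Compound 1 gave -0.48 (SE 0.12, adjusted p = 0.00458), while Enalapril against Vehicle gave -0.29 (adjusted p = 0.073) and the combination against Enalapril 0.45 (adjusted p = 0.149, or 0.0399 after median-of-ratios scaling). Slc24a3, of the potassium-dependent sodium-calcium exchangers, had 0.907 ± 0.390 FPKM in Vehicle and 0.608 ± 0.283 under Enalapril (-0.52, adjusted p = 0.173).

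Counted over the 35 tested members, 4 rose and 5 fell at the adjusted p under Enalapril, 25.7% of members against 30.2% of all tested genes, and 7 rose and 7 fell under the combination, against 45.6%. In all tested genes 3.57% rose and 26.6% fell under Enalapril, and 6.38% rose and 39.3% fell under the combination. The median change over members was -0.09 under Enalapril, -0.06 under Compound 1 and -0.04 under the combination, against -0.15, -0.07 and -0.18 over all tested genes. After median-of-ratios scaling the same counts were 9 higher and 1 lower under Enalapril and 12 higher and 4 lower under the combination. Of all 13482 tested genes, 2705 and 4294 then passed the adjusted p, not split by direction. Of the genes also past the fold threshold, 205 were higher and 164 lower under Enalapril, and 337 and 312 under the combination. With Compound 1, limma called 0 members (0.2% of all tested genes, 0.0445% higher and 0.156% lower) and 0 passed the adjusted p (0.475%, with 0.134% higher and 0.341% lower), while 4 members (Slc12a3, Slc20a1, Slc26a4 and Slc12a7) had an unadjusted p under 0.05. So did 1793 of all 13482 tested genes.

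**Figure D3:**
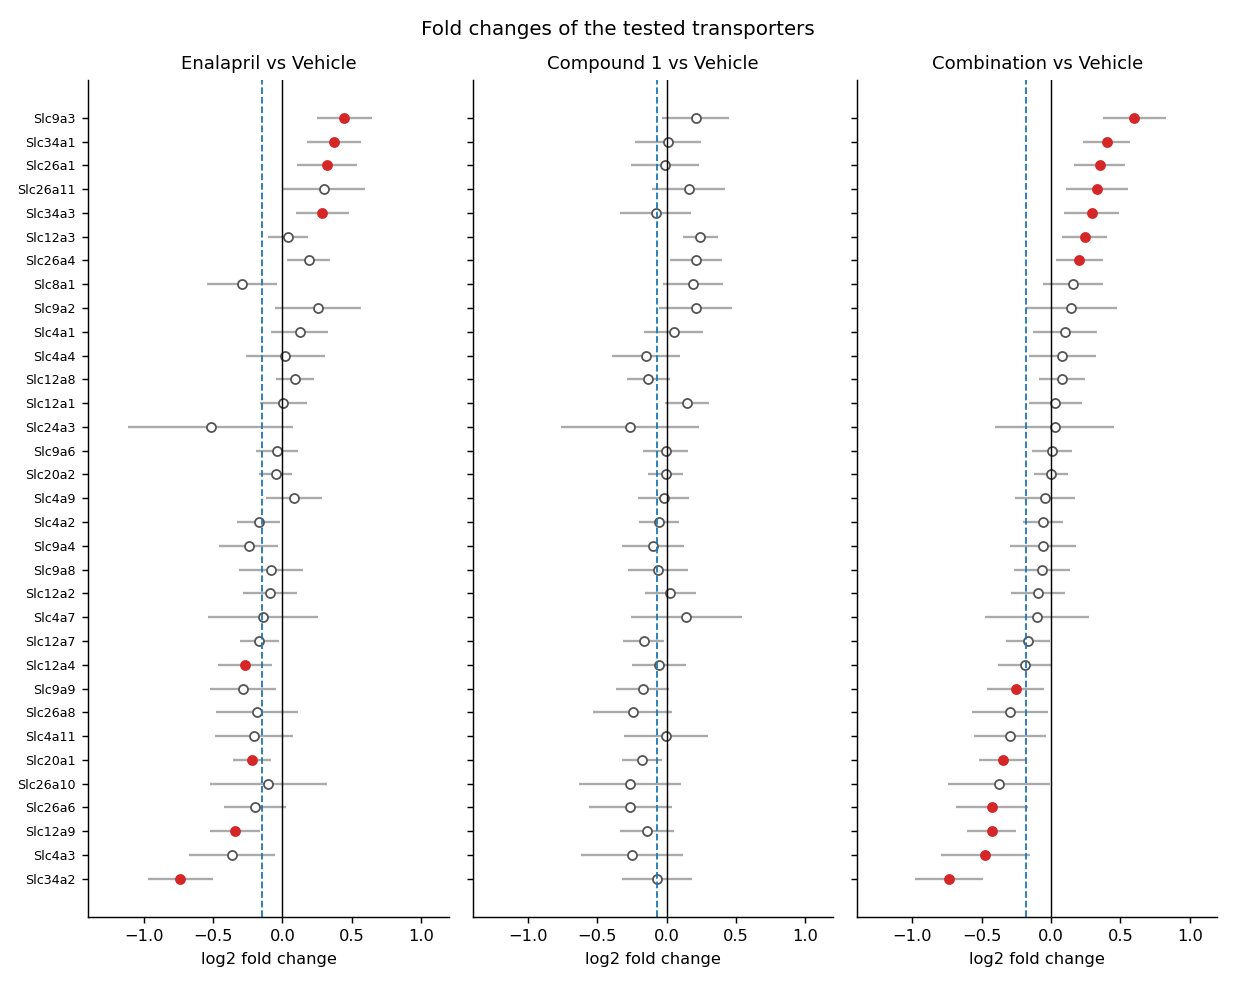
Log2 fold change against Vehicle (point) and its 95% interval (line) for 33 tested members, in 3 panels for Enalapril, Compound 1 and the combination, sorted by the combination. Filled points passed the adjusted p, and the dashed line marks the median of all tested genes (-0.15, -0.07 and -0.18); Slc34a2 lies farthest below it at -0.74 in 2 panels.

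Between treatments, the combination and Compound 1 alone differed in 7 members at the adjusted p, 5 higher and 2 lower under the combination, against 22.2% of all tested genes (4.72% higher and 17.4% lower), and in 1 called member (2.33% of genes, 0.274% higher and 2.05% lower), Slc34a2 (-0.67, adjusted p = 0.000388). Slc34a1 (0.39), Slc9a3 (0.39), Slc34a3 (0.37), Slc26a1 (0.36) and Slc12a8 (0.21) were higher and Slc12a9 (-0.29) lower. Slc12a8 lost its adjusted p in 13 of 44 fits that left out 1 animal, among them the fit without animal 3001 (0.16, adjusted p = 0.103). The next comparison shares the Compound 1 animals with this one. Enalapril against Compound 1 gave 5 members at the adjusted p (13.5% of all tested genes, 2.6% higher and 10.9% lower), with Slc34a2 called (-0.67, adjusted p = 0.000615, against 2.22% of genes called, 0.326% higher and 1.89% lower) and Slc34a1 (0.36), Slc34a3 (0.37) and Slc26a1 (0.33) higher, the last losing its adjusted p in 10 of 44 such fits, among them that without 3001 (0.26, adjusted p = 0.0899), and Slc34a3 in 2, without animal 2008 or 2010. Slc8a1 (-0.48) was lower. For Slc9a3 this difference was 0.24 (95% interval 0.00 to 0.48, adjusted p = 0.191).

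The combination and Enalapril alone differed in 0 members by limma, called or at the adjusted p (0.00742% of all tested genes called, 0.0519% at the adjusted p, of which 0.0223% higher and 0.0297% lower), with 3 at an unadjusted p under 0.05 (Slc8a1, Slc12a3 and Slc24a3). So were 1401 of all 13482 tested genes. The difference was 0.00 for Slc34a2 (95% interval -0.26 to 0.26), 0.03 for Slc34a1 (-0.17 to 0.23) and 0.15 for Slc9a3 (-0.09 to 0.40). The interaction of Enalapril and Compound 1 was called for 0 members (0.00742% of all tested genes), with 1, Slc24a3, at an unadjusted p under 0.05, as were 579 of all 13482 tested genes. The interaction was estimated with the lower dose of Compound 1 in the combination.

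Markers of some cell types moved with these results. Of 6 thick ascending limb, 2 distal convoluted tubule and 5 intercalated cell markers tested, 0 were called against Vehicle. At the adjusted p, 1 intercalated marker rose under Enalapril and 1 under the combination. Under the combination 1 thick ascending limb marker also rose and 1 fell. The 2 distal convoluted tubule markers had a median change of 0.24 under Compound 1, 0.12 under the combination and -0.02 under Enalapril. Their part in the Slc12a3 values was not tested. The mean log2 level of 9 proximal tubule markers was 7.77 ± 0.22 in Vehicle, 8.09 ± 0.09 under Enalapril, 7.71 ± 0.31 under Compound 1 and 8.09 ± 0.14 under the combination, and 7 of the 9 rose at the adjusted p under Enalapril and 7 under the combination. Their summed FPKM ran from 2018 to 3886 in Vehicle, from 3663 to 4767 under Enalapril, from 1291 to 4321 under Compound 1 and from 3342 to 4638 under the combination, and no marker was at 0 in every animal. The 3 animals with the lowest marker mean were 3001 (Compound 1, 6.83), 1003 (Vehicle, 7.29) and 1004 (Vehicle, 7.48), and 3001 and 1003 were the 2 lowest of all 44 for Slc34a1 and for Slc34a3 and the 2 highest for Slc34a2.

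With that mean as a covariate, 0 of 35 members were called or passed the adjusted p under Enalapril or the combination. All tested genes went from 611 to 1 called under Enalapril and from 995 to 197 under the combination. Slc34a1 then stood at 0.01 and 0.08, Slc34a2 at -0.39 (adjusted p = 0.205) and -0.37 (adjusted p = 0.0688), and Slc9a3 at 0.26 (adjusted p = 0.343) and 0.44 (adjusted p = 0.0649).

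Without Vehicle animals 1003 and 1004 the same 1 and 2 members were called under Enalapril and the combination. At the adjusted p, 3 members then rose and 4 fell under Enalapril, against 4 and 5 with all animals. Under the combination 6 rose and 7 fell, against 7 and 7. All tested genes called went from 611 to 355 under Enalapril and from 995 to 699 under the combination. At the adjusted p they went from 4071 to 3352 and from 6153 to 5595. All 5 leukocyte markers and all 3 fibroblast markers fell at the adjusted p under Enalapril and under the combination. Summed leukocyte markers ran from 2553 to 4255 FPKM in Vehicle, from 1941 to 2961 under Enalapril, from 2394 to 3652 under Compound 1 and from 2216 to 3157 under the combination, and fibroblast markers from 149.5 to 281.3, from 100.2 to 163.1, from 108.4 to 231.4 and from 102.5 to 177.0. Their part in the lower levels of Slc20a1, Slc12a4 and Slc12a9 was not tested. Inner medulla markers ran from 64.8 to 141.9 FPKM in Vehicle and from 47.9 to 96.9 under Enalapril, and with their mean as a covariate 0 members were called under Enalapril (Slc34a2 at -0.58, adjusted p = 0.0218). All tested genes went from 611 to 102 called in that fit, and from 4071 to 452 at the adjusted p.

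**Figure D4:**
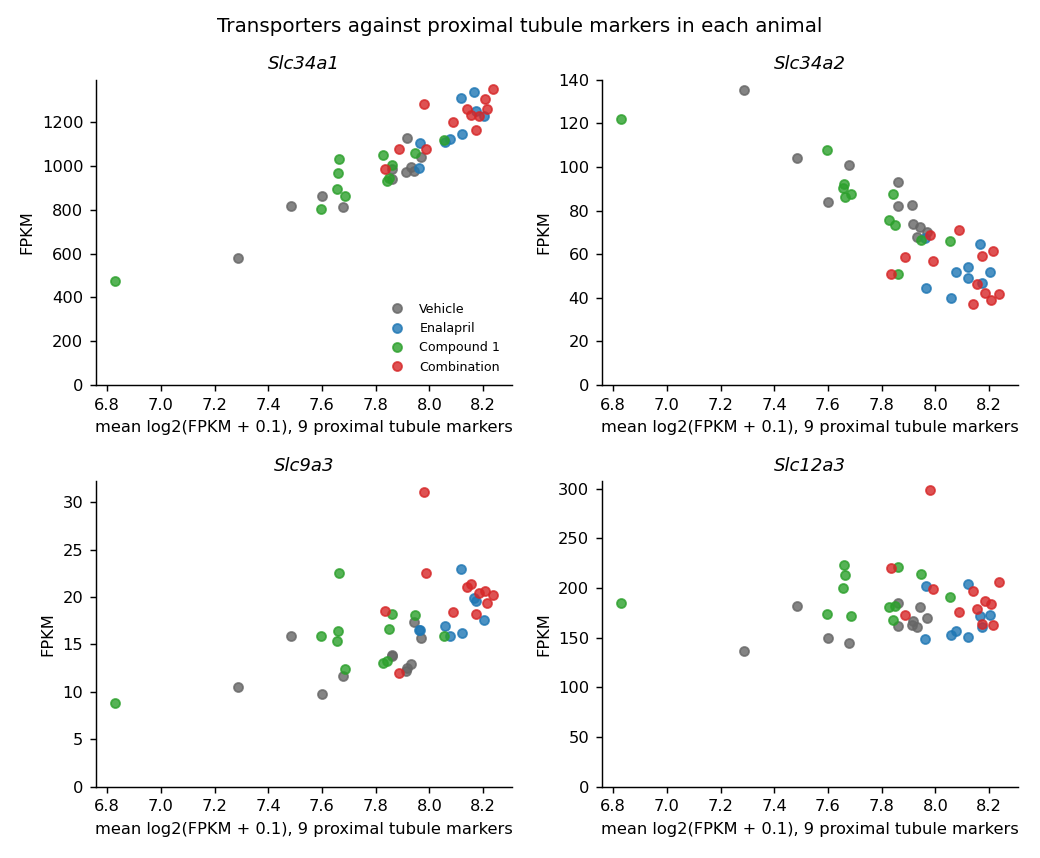
FPKM of Slc34a1, Slc34a2, Slc9a3 and Slc12a3 in each of 44 animals against the mean log2(FPKM + 0.1) of 9 proximal tubule markers, colored by group. Over all animals Slc34a1 runs upward and Slc34a2 downward along the marker axis, from animal 3001 (6.83) to 8.24, and for Slc12a3 1 animal of the combination stands at 299 FPKM.

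Genes that act with these carriers were listed as partners, 37 in all, of which 35 were tested. Under Enalapril 4 rose and 4 fell at the adjusted p (30.2% of all tested genes passed), under the combination 10 rose and 4 fell (45.6%), and under Compound 1 only 1 passed (0.475%). The vitamin D enzymes moved in opposite directions. Cyp27b1, which makes active vitamin D, fell from 3.57 ± 1.43 FPKM to 1.91 ± 0.719 under Enalapril (-0.87, adjusted p = 0.0189) and 1.24 ± 0.590 under the combination (-1.47, adjusted p = 0.000113). Cyp24a1, which degrades it, rose from 51.3 ± 11.6 to 86.7 ± 34.6 (0.70, adjusted p = 0.00413) and 92.0 ± 23.5 FPKM (0.83, adjusted p = 0.000111). Under Compound 1 alone Cyp27b1 stood at 1.60 ± 0.831 FPKM (-1.24, adjusted p = 0.0969) and Cyp24a1 at 70.1 ± 14.6 (0.46, adjusted p = 0.0824), and the test between Enalapril and Compound 1 gave adjusted p = 0.507 and 0.332.

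Pdzk1, a scaffold that binds Slc34a1 and Slc9a3, rose from 250.4 ± 36.0 FPKM to 317 ± 25.0 under Enalapril (0.35, adjusted p = 0.00283) and 330 ± 25.5 under the combination (0.41, adjusted p = 0.000122). Sgk1, a kinase that activates sodium transport, rose from 56.7 ± 14.3 to 86.2 ± 19.6 FPKM under Enalapril (0.61, adjusted p = 0.0027), a call, and to 77.2 ± 18.8 under the combination (0.44, adjusted p = 0.00789). The proton pump subunit Atp6v0a4 rose in both (0.20, adjusted p = 0.0176 and 0.29, adjusted p = 0.000215), and Oxsr1, a kinase that activates Slc12a1 and Slc12a3, fell under Enalapril (-0.22, adjusted p = 0.0184). With the combination Bsnd, a chloride channel subunit (0.28, adjusted p = 0.000406), and Fxyd2, a regulator of the sodium pump (0.27, adjusted p = 0.0012), also rose. Scnn1a, a subunit of the epithelial sodium channel, was the partner that passed under Compound 1, at 30.4 ± 2.93 against 23.9 ± 2.15 FPKM (0.34, adjusted p = 0.00314).

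Among the 11 Vehicle animals, 6 pairs of transporters were compared, with permutation tests of 100000 resamples. Slc34a1 and Slc34a3 gave Pearson's r = 0.75 (permutation p = 0.0146, adjusted 0.0785) and Spearman's rho = 0.564 (permutation p = 0.0747), and r was -0.02 without animals 1003 and 1007, so the relation rests on those animals. Slc20a1 and Slc34a1 gave r = -0.674 (permutation p = 0.0262, adjusted 0.0785) and rho = -0.573 (permutation p = 0.0705), and r was -0.288 without 1003 and 1004. The other 4 pairs had r between -0.282 (Slc12a1 with Slc12a3) and 0.5 (Slc4a1 with Slc26a4), with adjusted p from 0.235 to 0.708, and no pair passed after adjustment.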

How the data were processed

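Kidney RNA of 44 rats was sequenced. The authors deposited FPKM for 32883 entries, on build rn6 per the submitters' notes. Neither the aligner nor the program that counted reads is named in the sources used here. The paper put raw counts into DESeq2, but the deposited FPKM are not counts, so no count model was used. Of 28906 symbols, 295 stand on more than 1 entry, and for listed genes the entry of highest mean was taken. Empty columns, 2 in all, were left out.

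log2(FPKM + 0.1) was tested with limma 3.58.1 (R 4.3.3, mean-variance trend) over 13482 genes that exceeded 1 FPKM in 9 or more animals, with Benjamini-Hochberg adjustment and the thresholds of the paper. Each treatment was fitted with Vehicle alone, other comparisons in a fit of all 4 groups. Members, partners and markers were chosen with earlier results of these data known. Named were members at an adjusted p under 0.05 against Vehicle, the highest of each family, textbook transporters of the nephron, and up to 6 partners per comparison of lowest adjusted p; Slc12a8, Slc9a5, Slc9a7, Slc24a5, Slc26a3, Slc26a5 and Slc26a9 were named after their values were seen. Correlations used permutation tests. FPKM give no read totals, and relative depth, read from ratios of low values, was 0.62 to 1.33 in Vehicle, 0.812 to 1.43 with Enalapril, 0.847 to 1.34 with Compound 1 and 0.823 to 1.38 with the combination, so no counting interval can be given. The fit was tested on simulated data. Alternatives were pseudocounts of 1 and 0.01, no filter, FPKM above 5, median-of-ratios and quantile scaling, no fold threshold, sample weights, an inner medulla covariate, a fit of all 4 groups, and fits without each animal in turn, without 6 animals listed apart in the file (2005, 2011, 2012, 3103, 3011 and 4005), or without animals 2103 and 3102 to 3105. Chosen after seeing the data were a proximal tubule covariate and a fit without Vehicle animals 1003 and 1004. Promoters come from RefSeq (GRCr8); no coordinates of the FPKM file were used. For 2 tested members no values are reported here, though the counts over members include them.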

Additional observations from a re-analysis of the deposited data

Results flagged for a closer look

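Within the 9 Enalapril animals, each of the 35 tested members was searched for an animal far from the rest. Of these 35 members 2 were flagged, where chance flags about 1 of every 20 members searched, so the number is near that of chance. Slc4a4 was lowest in animal 2005, at 17.8 FPKM with the next at 31.4, a gap of 0.521 of the whole range. Slc26a1 was highest in animal 2012, at 88.9 FPKM with the next at 68.0, a gap of 0.52 of the range. Both animals are among the 6 listed apart from their group in the file. Without those 6, a fit that also had fewer Enalapril animals, the Enalapril value of Slc26a1 no longer passed the adjusted p. That value was lost in 0 of 20 fits that left out 1 animal, the fit without 2012 among them (highest adjusted p = 0.0478).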

How the results depend on the processing

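With Enalapril, the count of 1 called member became 2 without a filter (Slc34a2 and Slc9a5) and 2 with quantile normalization (Slc34a2 and Slc9a3), 0 with the inner medulla or proximal tubule covariate, and 9 with no fold threshold; it stayed 1 after median-of-ratios scaling, but was Slc9a3 in place of Slc34a2. With the combination, 2 became 1 with a pseudocount of 1, with median-of-ratios scaling (Slc9a3) and with the inner medulla covariate (Slc34a2), 4 without a filter (adding Slc9a5 and Slc26a9), 0 with the proximal tubule covariate and 14 with no fold threshold, and leaving out 1 animal gave 1 to 2. Against Compound 1, the combination's 1 became 0 with median-of-ratios scaling and both covariates and 7 with no fold threshold. Enalapril's 1 became 0 with median-of-ratios scaling and the proximal tubule covariate, 5 with no fold threshold, and Slc8a1 (-0.60) in place of Slc34a2 with the inner medulla covariate. For all other counts, leaving out 1 animal changed nothing. Over all tested genes, median-of-ratios scaling gave 369 called (205 higher, 164 lower) with Enalapril and 649 (337 and 312) with the combination, against 611 (66 and 545) and 995 (134 and 861). The inner medulla covariate gave 102 and 726 called over all tested genes. Of 35 results of single members at the adjusted p, 34 or 35 held with other pseudocounts and sample weights, 23 with median-of-ratios scaling, 26 with quantile normalization, 13 with the inner medulla covariate and 0 with the proximal tubule covariate, which turned 7: Slc26a1 with Enalapril (-0.0371), Slc34a3 (-0.0197), Slc12a8 (-0.0432) and Slc26a1 (-0.0423) in the combination against Compound 1, and Slc34a3 (-0.0255), Slc26a1 (-0.0754) and Slc34a1 (-0.0251) in Enalapril against Compound 1. Without the 2 animals farthest from the median, r was -0.0218 for Slc34a1 with Slc34a3, 0.085 with Slc9a3, 0.658 with Slc4a4 and -0.288 with Slc20a1, and median-of-ratios scaling gave 0.843 (adjusted p = 0.0256) for Slc34a1 with Slc34a3. The causes were not tested. No paired analysis was possible because the animals of the groups are separate and share no numbers.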
